A study of Mus musculus with 30 samples.

Results

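The ErbB family is described here as 9 genes, which are the receptor genes Egfr, Erbb2, Erbb3 and Erbb4 and the ligand genes Tgfa, Hbegf, Btc, Nrg1 and Ereg. They were taken by symbol, with the row of highest mean level standing for each gene, and all 9 were found among the 20855 genes named in the table of values. The samples were PyMT-induced mammary tumours, 1 from each of 30 mice whose MOLF x PyMT parents had been crossed back to FVB. PyMT, the polyoma virus middle T antigen, is an oncoprotein that starts mammary tumours in mice, and backcross animals each inherit a different mix of MOLF and FVB chromosome segments. The labels place all tumours in 1 group, name no promoter for the transgene, age, stage, treatment or genotype, and give 1 library of poly-A selected RNA per animal, so the results are levels and relations over these tumours (n = 30 except where stated). Errors and p-values therefore measure the spread between tumours, in which technical variation is included.

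ErbB receptors are tyrosine kinases of the cell surface that act in pairs. EGFR and ERBB4 bind ligands and signal on their own, ERBB2 has no known ligand and serves as the favoured partner of the others, and ERBB3 binds neuregulins but has little kinase activity and signals through its partner, mainly to phosphatidylinositol 3-kinase. TGF-alpha (Tgfa) binds EGFR, HB-EGF (Hbegf), betacellulin (Btc) and epiregulin (Ereg) bind EGFR and ERBB4, and neuregulin 1 (Nrg1) binds ERBB3 and ERBB4. In the mammary gland the family is known for its roles in duct growth and milk production, and ERBB2 for its amplification in human breast cancer. The middle T antigen recruits several of the same adaptors and kinases directly.

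Levels are in RPKM, in which reads are divided by transcript length and by library depth, so that genes can be set side by side. Depth was worked out from the spacing of low RPKM values and was 117.0 to 196.0 M reads in 14 deep libraries and 42.6 to 61.9 M reads in 16 shallow ones. Tests were run on 13615 genes whose mean reached 1 RPKM, on the scale of log2(RPKM + 1); their median mean level was 11.7 RPKM and their median SD 0.27. Epithelial markers were high in all tumours, with at least 284.1 RPKM for Krt8, 326.5 RPKM for Krt18 and 312.8 RPKM for Epcam. A piece of tumour also holds other cells, and a lower level from fewer cells of a type cannot be told apart from less RNA per cell.

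3 libraries stood apart in a way that touches several results. For each library a length trend was taken, the slope of the genes' log2 deviations from their means on the log2 of transcript length. It was -0.267 in the tumour of animal 4150, -0.112 in animal 4030 and -0.11 in animal 4042, and lay between -0.084 and 0.1 in the other 27. A low value means that long transcripts were low and short ones high in that library. The transcripts of Erbb4 (12037 bases) and Egfr (10208 bases) are the longest of the 9, followed by Erbb3 (6016 bases) and Erbb2 (5012 bases). Over 30 tumours Erbb4 had r = 0.65 and rho = 0.68 with this trend (permutation p = 8e-05 and 9e-05, adjusted over the 9 genes 0.00072 and 0.00081), and r = 0.49 without the 3 libraries. Egfr had r = 0.49 and rho = 0.52 (permutation p = 0.00548 and 0.00407, adjusted 0.0164 and 0.0183), and r = 0.35 without them. Erbb3 had r = 0.61 but rho = 0.24 (permutation p = 0.00106 and 0.193, adjusted 0.00477 and 0.347), and r = 0.07 without them. Erbb2 had r = -0.02 and the ligands from -0.4 for Hbegf to 0.3 for Btc, none past an adjusted p of 0.05. Where a call was lost without these libraries or with the trend as a covariate, this is said beside it.

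**Figure D1:**
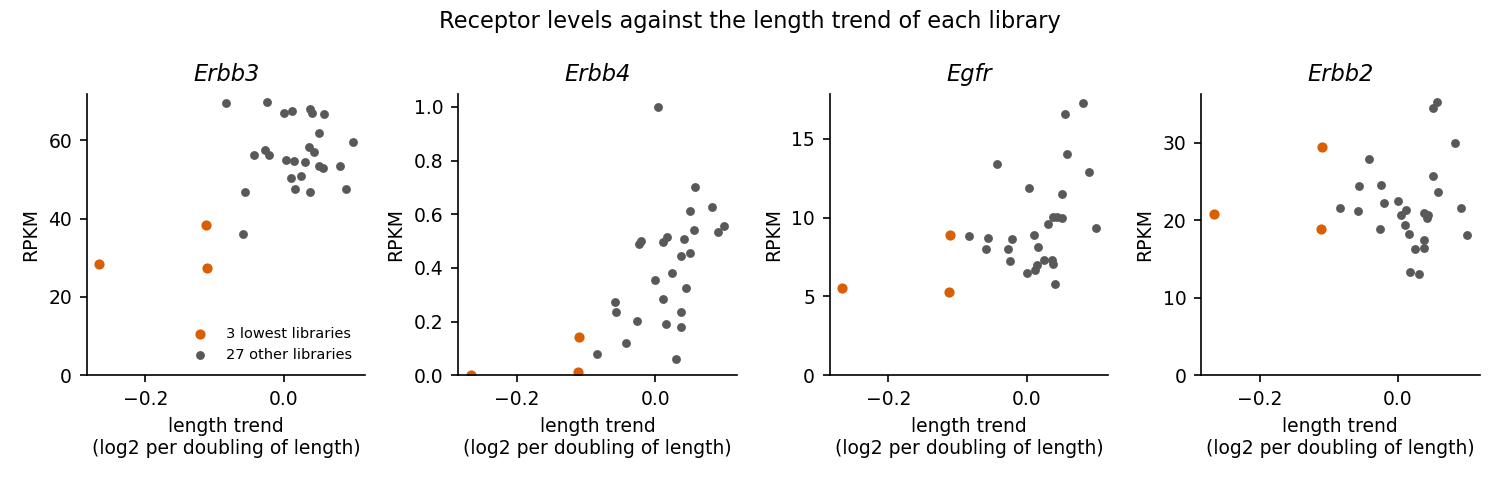
Level of each receptor gene in RPKM (vertical axes, from 0) against the length trend of the library (horizontal axes, log2 units per doubling of transcript length), 1 point per tumour, with the 3 libraries of lowest trend in orange. Those 3 libraries lie at or near the bottom for Erbb3 (27.4 to 38.5 RPKM) and Erbb4 (0 to 0.143 RPKM) and within the range of the others for Erbb2.

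Among the receptors Erbb3 was the most abundant. Erbb3 averaged 54.2 ± 11.2 RPKM (SD, n = 30), from 27.4 RPKM in animal 4042 over a median of 54.9 RPKM to 69.8 RPKM in animal 4262. Erbb2 averaged 21.98 ± 5.32 RPKM, from 13.03 RPKM in animal 4357 over a median of 21.03 RPKM to 35.3 RPKM in animal 4038. Egfr averaged 9.34 ± 3.04 RPKM, from 5.27 RPKM in animal 4030 over a median of 8.76 RPKM to 17.3 RPKM in animal 4020. The 3 receptors thus kept the order Erbb3, Erbb2, Egfr in nearly every tumour: Erbb3 was the highest of the 4 receptors in 29 tumours, and Erbb2 (29.5 RPKM) exceeded it only in animal 4042. Of the summed level of the 4 receptors, Erbb3 made up 41.58% to 74.19% (median 63.91%), Erbb2 16.87% to 44.7% (median 23.77%) and Egfr 6.16% to 17.02% (median 10.73%). Erbb4 was scarce, with a mean of 0.369 ± 0.23 RPKM and a highest value of 1.0 RPKM in animal 4144. It was listed at 0 in animal 4150 and at 0.011 RPKM in animal 4030, the 2 libraries of lowest length trend.

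Egfr is given by 2 rows. The row used is the long transcript. A short transcript of 2943 bases averaged 8.63 ± 3.01 RPKM and followed it closely over tumours (r = 0.96, rho = 0.98, as a description, since rows of 1 gene can share reads). The ratio of short to long was lowest in animal 4150 (0.565), against a median of 0.921 and a highest ratio of 1.04 in animal 3273. Animal 4150 is the library of lowest length trend, in which long transcripts were low over all genes. The ratio of the 2 Egfr rows thus went in the opposite direction there, and the cause was not tested.

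Tgfa was the most abundant of the 5 ligands. It averaged 5.72 ± 2.49 RPKM, from 1.75 RPKM in animal 4461 over a median of 5.61 RPKM to 12.6 RPKM in animal 4511. Its SD of 0.52 on the log2 scale was the largest of the 9 genes and larger than that of 89.2% of tested genes. Hbegf averaged 2.57 ± 1.19 RPKM, from 1.28 RPKM in animal 4511 over a median of 2.31 RPKM to 6.66 RPKM in animal 4042. Btc averaged 1.78 ± 0.554 RPKM, from 0.649 RPKM in animal 4030 over a median of 1.8 RPKM to 2.75 RPKM in animal 4142. Tgfa was the highest of these 5 ligands in 26 tumours and Hbegf in the other 4, the tumours of animals 3654, 4030, 4042 and 4461.

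The 2 remaining ligands averaged below 1 RPKM, and Ereg was near the lower limit of the assay. Nrg1 averaged 0.672 ± 0.67 RPKM with a median of 0.477 RPKM, and its highest value of 3.57 RPKM in animal 4020 lay far above the next, 1.65 RPKM in animal 4144. In ratio Nrg1 varied the most of the 9 genes, with a highest value 30.2-fold above its lowest (0.118 RPKM, in animal 4438), leaving aside Erbb4, which is listed at 0 in 1 tumour. Ereg averaged 0.0483 ± 0.036 RPKM and did not exceed 0.168 RPKM, in animal 3427. At the recovered depths an Ereg value stood for 2.0 to 107.6 reads and a Nrg1 value for 15.1 to 1438.4 reads (median 132.7). An Erbb4 value stood for a median of 330.5 reads, against 24909.2 for Erbb3. Differences in Ereg between single tumours thus carry a large counting error. The fold of Nrg1 rests on its 1 highest tumour and on a lowest value of few reads. Erbb4, Nrg1 and Ereg fell below the mean of 1 RPKM asked of a tested gene, and 6 of the 9 genes passed.

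**Figure D2:**
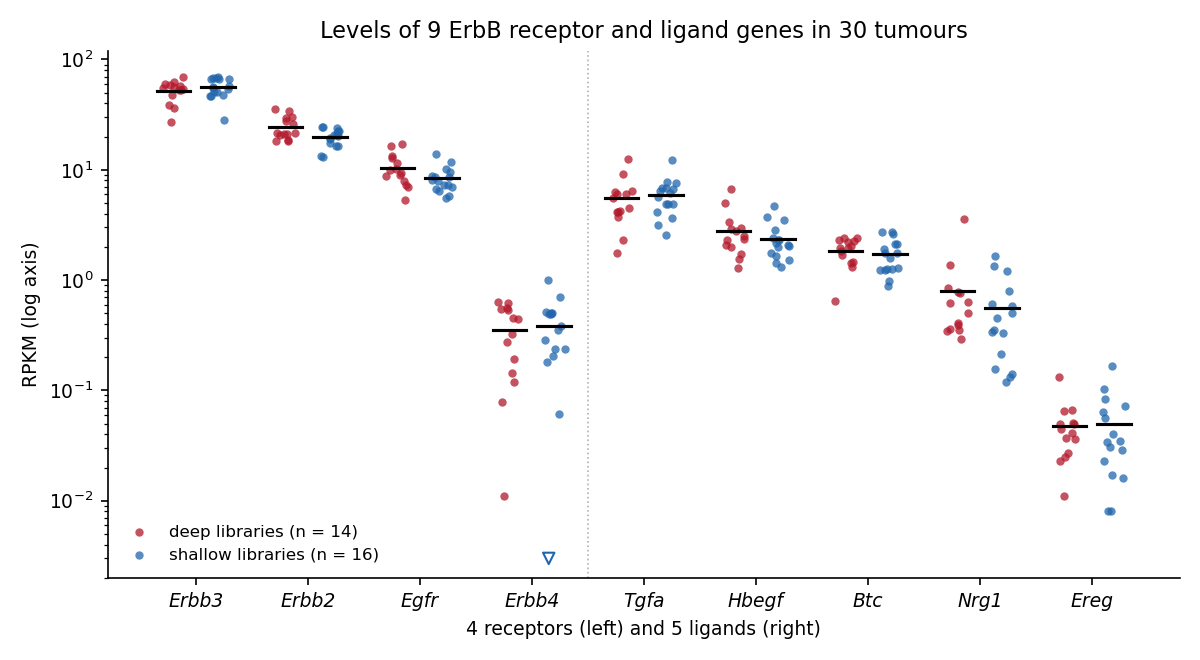
RPKM on a log axis of the 4 receptor genes and the 5 ligand genes, 1 point per tumour, deep libraries in red and shallow libraries in blue, with bars at the means; the open triangle marks the tumour in which Erbb4 is listed at 0. Erbb3 lies highest (mean 54.2 RPKM) and Ereg lowest (mean 0.0483 RPKM), and deep and shallow libraries overlap for every gene.

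The order of the 9 levels was tested step by step with a paired sign-flip permutation test of log2(RPKM + 1) over the 30 tumours (100000 resamples, two-sided, 8 steps). The order was Erbb3, Erbb2, Egfr, Tgfa, Hbegf, Btc, Nrg1, Erbb4 and Ereg, and all 8 steps passed 0.05. Since the order was taken from the means of the same values, the p-values only describe how steady each step was between tumours. They do not cover differences between transcripts in how well they were measured. The smallest p that the test can give, 1e-05, was reached by 5 steps. Egfr exceeded Tgfa in 24 tumours (permutation p = 4e-05), Hbegf exceeded Btc in 21 (p = 0.00223) and Nrg1 exceeded Erbb4 in 22 (p = 0.00458), so those neighbours changed places in 6 to 9 tumours. Within the 16 shallow libraries alone 6 of the 8 steps passed, within the 14 deep ones all 8.

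No member passed the test between depth classes or on insert size. In limma's fit across all tested genes, deep minus shallow libraries, 0 of the 6 members passed an adjusted p of 0.05, against 1.24% of genes, and 1 had an unadjusted p under 0.05. That was Erbb2, at 24.6 ± 5.89 RPKM (SD, n = 14) in deep and 19.7 ± 3.61 RPKM (n = 16) in shallow libraries (log2 difference 0.29 ± 0.1, SE, limma's adjusted p = 0.244). On the mean insert size given in the labels again 0 of 6 passed, against 0.0367% of genes, with 1 at an unadjusted p under 0.05 (Erbb2, adjusted p = 0.387).

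Relations between members asked which of the 9 genes varied together. For each of the 36 pairs the gene of higher mean was read in the limma regression of all tested genes on the gene of lower mean, which was possible for 33 pairs. Slopes are log2 units per SD of the predictor, and adjusted p-values are Benjamini-Hochberg values over all genes. 2 of the 33 pairs passed 0.05 and 8 had an unadjusted p under 0.05. Of all genes 4.84% passed the adjusted p, summed over the 9 fits, so the 2 calls were close to the share of any genes. Unadjusted p-values under 0.05 were common over all genes too, from 411 of 13615 on Ereg to 3768 of 13614 on Egfr among the predictors used. Both pairs that passed were between receptors.

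The first was Erbb2 with Egfr, both on chromosome 11. Erbb2 rose by 0.16 ± 0.05 log2 units per SD of Egfr (SE, limma's adjusted p = 0.0472, r = 0.48 and rho = 0.40, permutation p = 0.00761 and 0.0294), where 6.25% of all genes rose. The 2 tumours of highest Egfr, animals 4020 (17.3 RPKM) and 4038 (16.6 RPKM), also had high Erbb2 (30.0 and 35.3 RPKM). Without them r was 0.28 and the adjusted p 0.362. The relation was seen within deep libraries (r = 0.68) and not within shallow ones (r = -0.01), and adjusted p-values ran from 0.0112 with the stroma score as a covariate to 0.991 in shallow libraries over 14 alternatives, 5 of which kept the call. Leaving out 1 tumour ended the call for 17 of the 30, with adjusted p-values up to 0.15. The same pair with Erbb2 as the predictor did not pass (slope 0.19, limma's adjusted p = 0.0782).

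The second was Egfr with Erbb4. Egfr rose by 0.19 ± 0.06 per SD of Erbb4 (SE, limma's adjusted p = 0.0470, r = 0.49 and rho = 0.48, permutation p = 0.00633 and 0.00831), where 5.92% of all genes rose. It had a like r within deep (0.60) and shallow (0.49) libraries, but passed in neither (limma's adjusted p = 0.0899 and 0.478). Of 14 alternatives 6 kept the call. With the length trend as a covariate the slope was 0.11 and the adjusted p 0.618, and without the 3 libraries of low trend 0.13 and 0.439. Leaving out 1 tumour ended the call for 18 of the 30, with adjusted p-values up to 0.131.

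The other pairs did not pass. Erbb3 had a slope of -0.16 on Hbegf (limma's adjusted p = 0.171, r = -0.48, rho = -0.17), and the same pair with Erbb3 as the predictor passed (slope -0.2, adjusted p = 0.0446). Its r was 0.03 without the 3 libraries of low length trend, which hold the 2 lowest Erbb3 values and the 2 highest Hbegf values, so this relation rests on them. Egfr had r = 0.42 with Nrg1 (limma's adjusted p = 0.260), and r = 0.14 without animals 4020 and 4144. Btc had r = 0.44 with Erbb4 (adjusted p = 0.092) and 0.38 with Egfr (0.256). Erbb3 and Erbb2, the 2 most abundant receptors, had r = -0.05, and Nrg1 had r = -0.17 with its receptor Erbb3. Tgfa had r between -0.27 (Egfr) and 0.34 (Ereg) with the other 8 genes.

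**Figure D3:**
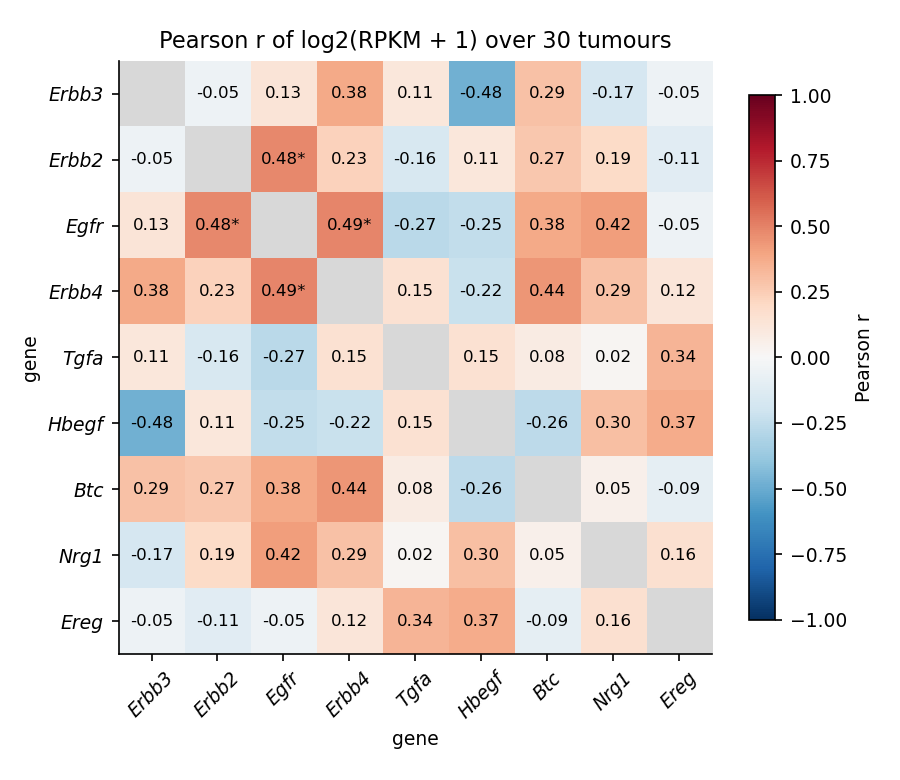
Pearson r of log2(RPKM + 1) over 30 tumours for the 36 pairs of the 9 genes, red positive and blue negative, receptors first; asterisks mark the 2 pairs that passed limma's adjusted p of 0.05. The values run from -0.48 for Erbb3 with Hbegf to 0.49 for Egfr with Erbb4.

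The sequence just before the start of the gene is shown for the 3 receptors that make up these 2 pairs, as the 150 bases upstream of the RefSeq gene start (GRCm38.p6, 5′ to 3′ on the gene's strand). Capitals mark a GC box, GGGCGG or its reverse complement CCGCCC, the element bound by Sp1, searched on both strands. These windows lie at chr11:16752053-16752202 on the plus strand for Egfr, chr11:98412334-98412483 on the plus strand for Erbb2 and chr1:69108060-69108209 on the minus strand for Erbb4.
Egfr: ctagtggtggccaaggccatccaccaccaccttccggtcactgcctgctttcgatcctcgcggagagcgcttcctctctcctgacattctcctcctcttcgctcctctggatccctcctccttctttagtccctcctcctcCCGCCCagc
Erbb2: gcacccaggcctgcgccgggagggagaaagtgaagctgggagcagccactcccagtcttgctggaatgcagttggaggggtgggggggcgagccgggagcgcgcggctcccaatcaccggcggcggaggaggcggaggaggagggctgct
Erbb4: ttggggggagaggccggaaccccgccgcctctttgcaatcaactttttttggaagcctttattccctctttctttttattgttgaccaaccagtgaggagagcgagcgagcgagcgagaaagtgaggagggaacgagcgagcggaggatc
1 GC box was found for Egfr and 0 for Erbb2 and Erbb4, while 28.6% of 32851 promoter windows of this length held at least 1. The letters TATAAA were in none of the 3 windows and in 7.57% of all. G and C made up 61.3% of the Egfr window, 71.3% of the Erbb2 window and 54.0% of the Erbb4 window, against a median of 54.0%. A match is a description of the letters, and its part in the levels was not tested.

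Each member was next set against 18 marker scores of cell types and programmes, the mean standardised level of each list in units of its SD. 5 of the 108 relations tested for the 6 members passed limma's adjusted p of 0.05, and 17 had an unadjusted p under 0.05. Of all genes 5.67% passed the adjusted p, summed over the 18 fits, so the members passed about as often as other genes. The like share of all genes at an unadjusted p was not counted, so the 17 cannot be read as many or few. The lists were chosen with earlier results of these data known.

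Egfr fell with proliferation and rose with stroma. The proliferation list has 15 of 15 genes in use, such as Mki67 and Top2a, with a summed level of 357 RPKM in animal 4036 to 915 RPKM in animal 4459. Per SD of this score Egfr fell by 0.26 log2 units (SE 0.06, limma's adjusted p = 0.0018, r = -0.65 and rho = -0.65, permutation p = 0.00013 and 0.00017), where 7.06% of all genes fell. The call held without any 1 tumour (adjusted p of at most 0.00681), without the 3 libraries of low length trend (0.000824), and with the length trend as a covariate (0.000831). The r was -0.72 within deep and -0.67 within shallow libraries, with adjusted p-values of 0.0609 and 0.074 in those smaller sets. Egfr is also expressed by fibroblasts and other stromal cells, whose part in this relation was not tested.

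The stroma list, collagens and other matrix genes, had 16 of 16 genes in use and summed to 413 RPKM in animal 4438 up to 7290 RPKM in animal 4036. Egfr rose by 0.19 ± 0.06 per SD of this score (SE, limma's adjusted p = 0.0351, r = 0.47 and rho = 0.52, permutation p = 0.00892 and 0.0036), where 10.5% of all genes rose. The call was lost without animal 4036, 4150, 4438 or 4547 (adjusted p up to 0.107), without animals 4036 and 4438 together (0.155) and without the 3 libraries of low length trend (0.0765). The r was 0.26 within deep libraries (adjusted p = 0.677) and 0.69 within shallow ones (0.0294). With the length trend as a covariate the slope was 0.12 and the adjusted p 0.193, the stroma score itself having r = 0.43 with that trend. The tumour of animal 4036 had the lowest summed proliferation level and the highest stroma level, and also the highest summed level of the adipocyte list (3480 RPKM, against a median of 262 RPKM). The stroma and proliferation scores ran against each other (r = -0.57, rho = -0.58, permutation p = 0.00109 and 0.00093; r = -0.36 without animals 4036 and 4438), and their separate parts in the level of Egfr were not tested.

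Hbegf rose with hypoxia genes and fell with hormone-sensing luminal genes. The hypoxia list had 10 of 10 genes in use, among them Vegfa, Car9 and Slc2a1, and summed to 602 RPKM in animal 4038 up to 1680 RPKM in animal 4438. Hbegf rose by 0.30 ± 0.05 per SD of this score (SE, limma's adjusted p = 0.00586, r = 0.72 and rho = 0.73, permutation p = 2e-05 for each), where 0.345% of all genes rose. The call held without any 1 tumour (adjusted p of at most 0.0226) and with the length trend as a covariate (0.0184). Without the 3 libraries of low length trend the slope was 0.21 and the adjusted p 0.0515. The r was 0.84 within deep and 0.65 within shallow libraries.

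The hormone-sensing list (Esr1, Prlr, Gata3, Wnt4 and Cited1, 5 of 8 genes in use) summed to 55.3 RPKM in animal 4030 up to 125.0 RPKM in animal 4142. Hbegf fell by 0.24 log2 units for each SD (SE 0.06, limma's adjusted p = 0.0139, r = -0.58 and rho = -0.50, permutation p = 0.00071 and 0.00572), where 3.44% of all genes fell. The call rested on the tumour of animal 4042, which has the highest Hbegf and the lowest score: without it the adjusted p was 0.107, and with the length trend as a covariate 0.0616. Without the 3 libraries of low length trend, of which it is 1, the slope was -0.12 (limma's adjusted p = 0.233, r = -0.37). The r was -0.68 within deep and -0.42 within shallow libraries. The hypoxia and hormone-sensing scores had r = -0.39 (rho = -0.42, permutation p = 0.0342 and 0.0216; r = -0.31 without animals 4042 and 4142). Hbegf also had r = 0.58 with the luminal epithelial list of keratins and claudins, which did not pass (slope 0.24, limma's adjusted p = 0.0591).

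Erbb2 fell with milk genes. The milk list, the caseins with Wap, Lalba, Glycam1 and Olah, had 9 of 9 genes in use and summed to 2310 RPKM in animal 4461 up to 54000 RPKM in animal 4378. The tumour of animal 4461 had the second-highest Erbb2 (34.4 RPKM) and that of animal 4378 the second-lowest (13.3 RPKM). Per SD of the score Erbb2 fell by 0.20 log2 units (SE 0.05, limma's adjusted p = 0.0247, r = -0.61 and rho = -0.61, permutation p = 0.00039 and 0.00048), where 1.15% of all genes fell. The tumour of animal 4378 also had the highest summed levels of the T cell list (79.5 RPKM, median 23.9 RPKM) and the B cell list (114 RPKM, median 11.4 RPKM), whose part in this was not tested. The call was lost without animal 4038, 4378 or 4461 (adjusted p up to 0.101) and with quantile normalization (0.0577). It held with the length trend as a covariate (0.0158), and r was -0.49 within deep and -0.70 within shallow libraries.

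The other members gave no call on any of the 18 scores in the fit with a filter. Erbb3 had a slope of -0.15 on milk genes (limma's adjusted p = 0.164). Tgfa had a slope of 0.21 on basal and myoepithelial genes (adjusted p = 0.289) and of 0.21 on immediate early genes (0.207). Btc had a slope of 0.12 on T cell genes (0.299). Without a filter on low genes, Nrg1 fell with proliferation (slope -0.22, adjusted p = 0.0386), where 5.58% of the genes so tested fell. Ereg had r = 0.55 with keratinised epithelium (adjusted p = 0.0732), and Erbb4 had r = 0.41 with Schwann cell genes (0.254), neither of which passed.

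**Figure D4:**
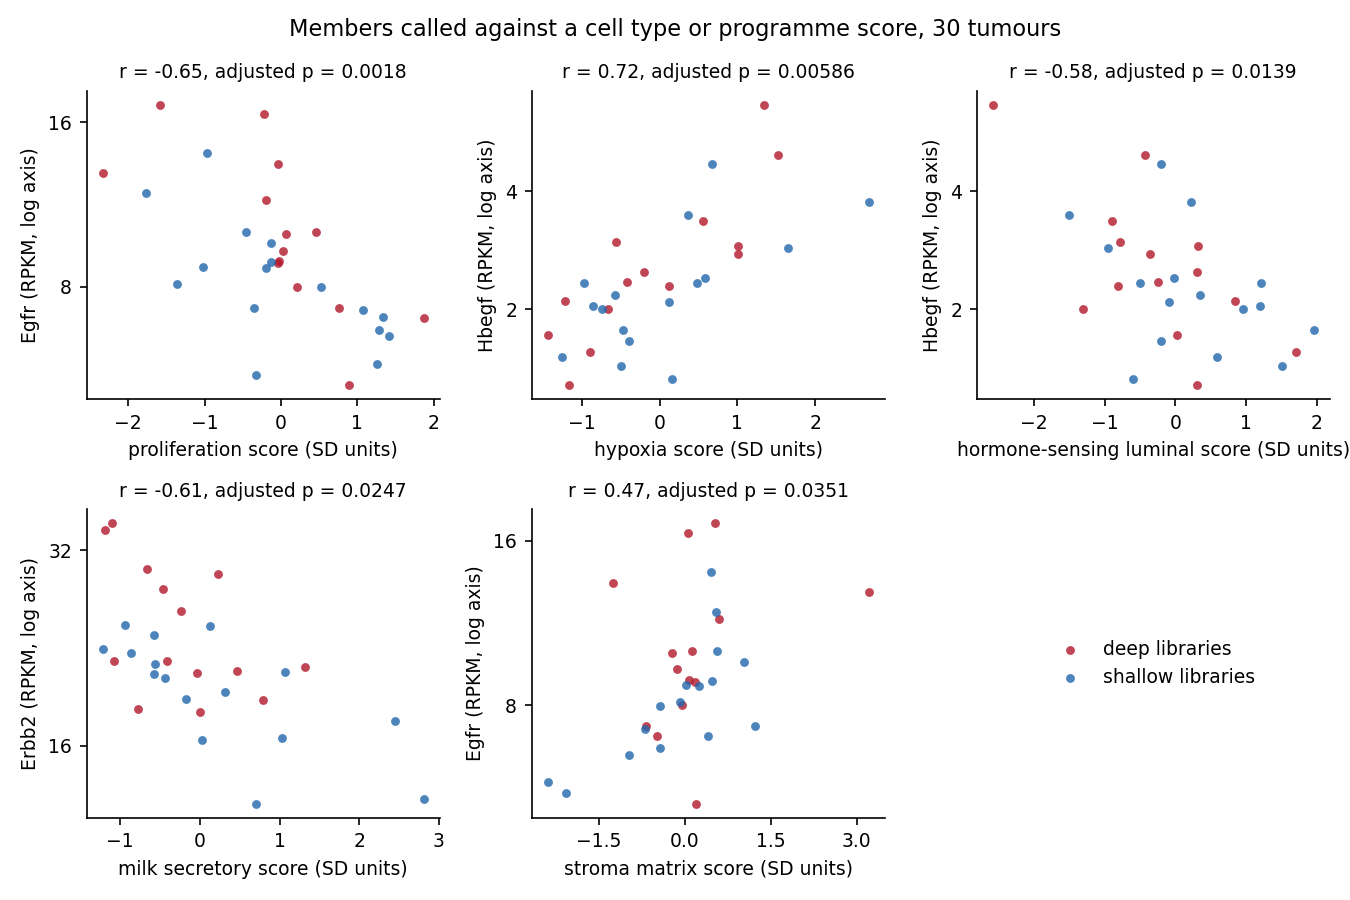
Level of the member (vertical axes, RPKM on a log axis) against the list score (horizontal axes, SD units) for the 5 relations that passed, 1 point per tumour, deep libraries in red and shallow libraries in blue. Egfr against proliferation (r = -0.65) and Hbegf against hypoxia (r = 0.72) slope the same way in both depth classes, while the tumour at the upper left of Hbegf against the hormone-sensing score is that of animal 4042.

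A list of 55 other ErbB pathway genes was read in the same fits. Of these 53 passed the filter and 26 of the 477 relations with the 9 members passed limma's adjusted p of 0.05, with 115 at an unadjusted p under 0.05. Over all genes 4.84% passed in the 9 fits. All 26 were with receptors. With the 5 ligands limma called 0 of 265, 47 of them at an unadjusted p under 0.05, in fits where 0.144% of all genes passed, so that 0 is close to the share of any genes. The counts of 115 and 47 have another background, all genes at limma's unadjusted p under 0.05. These ran from 411 of 13615 with Ereg to 2374 of 13614 with Hbegf among the ligands. Among the receptors they ran from 2628 of 13614 with Erbb2 to 3969 of 13614 with Erbb3.

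Other ligands reached levels like that of Tgfa. Nrg2, a neuregulin, averaged 5.27 ± 2.41 RPKM, Nrg4 3.88 ± 1.21 RPKM, Egf 3.51 ± 1.81 RPKM and Areg (amphiregulin) 1.06 ± 1.01 RPKM. Epgn averaged 0.57 ± 0.512 RPKM, and Nrg3 was listed at 0 in 16 tumours, and these last 2 did not reach a mean of 1 RPKM. Among all 11 ligands Tgfa was highest in 15 tumours, Nrg2 in 10, Hbegf and Nrg4 in 2 each and Egf in 1, so the neuregulin measured highest here was Nrg2 and not Nrg1.

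With Erbb2, 6 of 53 pathway genes rose and 0 fell, against 4.21% of all genes that rose and 0.918% that fell (median slope 0.03, against 0.012 over all genes). Grb7, an adaptor that binds ERBB2 and whose gene lies close to it, had the lowest p (slope 0.34 ± 0.04, SE, limma's adjusted p = 1.56e-05, r = 0.83). Rhbdf1, an inactive rhomboid that helps the sheddase ADAM17 to mature, had a slope of 0.23 (adjusted p = 0.00581), and Dusp6, an ERK phosphatase and a target gene of ERK, 0.27 (0.0135). Spry2, an inhibitor of receptor signalling (0.15, adjusted p = 0.037), Lrig3 (0.16, 0.0425) and Nrg2 (0.33, 0.0493) completed the 6. Grb7 and Rhbdf1 are on chromosome 11 with Erbb2, where 20.3% of tested genes rose with it. All 6 kept the call with the length trend as a covariate, and Nrg2 lost it without the 3 libraries of low trend (adjusted p = 0.0532). With the depth class as a covariate Nrg2 (limma's adjusted p = 0.126) and Spry2 (0.0919) lost it, and likewise with insert size (0.142 and 0.1). Without animals 4038 and 4461 Lrig3 (0.128) and Spry2 (0.0587) lost it. Within deep libraries none of the 6 passed, the lowest adjusted p being 0.0858 for Grb7. Leaving out 1 tumour ended the call of Nrg2 for 24 of the 30, of Lrig3 for 11, of Spry2 for 8 and of Dusp6 for animal 4357 (0.069), and that of Grb7 and Rhbdf1 for 0. Dusp6 was the only 1 of the 9 ERK target genes that passed.

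With Egfr, 3 of 53 rose and 0 fell, against 6.25% of all genes that rose and 6.1% that fell, so the pathway genes rose about as often as others (median slope 0.05, against 0.011). Pik3r1, the regulatory subunit of phosphatidylinositol 3-kinase and the most abundant adaptor or transducer after Mapk3 (113.0 ± 24.3 RPKM), had a slope of 0.17 (limma's adjusted p = 0.0224). Sos2, a Ras exchange factor, had 0.11 (0.0392), and Nrg2 0.31 (0.044). With the length trend as a covariate only Nrg2 kept the call (adjusted p = 0.0295), against 0.0929 for Pik3r1 and 0.252 for Sos2, and none of the 3 did without the 3 libraries of low trend (0.066 to 0.132). Nor did any without animals 4020 and 4038 (0.0712 to 0.092). Nrg2 also lost the call with the depth class as a covariate (0.0852). Leaving out 1 tumour ended the call of Nrg2 for 12 of the 30, of Sos2 for 7 and of Pik3r1 for 3.

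With Erbb3, 13 of 53 rose, against 11.2% of all genes, and 1 fell, against 3.57% (median slope 0.04, against 0.018). Among those that rose were the sheddases Adam10 (slope 0.14, limma's adjusted p = 0.00161) and Adam17 (0.11, 0.00217), the ubiquitin ligases Cbl (0.27, 0.000859) and Rnf41, which marks ERBB3 for breakdown (0.09, 0.044), and the transducers Sos1, Gab1, Ptpn11 and Pik3ca, with Usp8, Spred1, Spred2 and Dusp4. Areg fell (slope -0.30, adjusted p = 0.0235). None of the 14 kept the call with the length trend as a covariate, where the adjusted p-values ran from 0.133 for Adam10 to 0.875 for Spred1, or without the 3 libraries of low trend.

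With Erbb4, 3 of 53 rose and 0 fell, against 5.92% of all genes that rose and 4.66% that fell, again about as often as others (median slope 0.06, against 0.005). They were Egf (slope 0.35, limma's adjusted p = 0.0115), Cbl (0.23, 0.0151) and Spred1 (0.15, 0.0277). With the length trend as a covariate the slopes were 0.35 for Egf (adjusted p = 0.226), 0.00 for Cbl (0.997) and 0.00 for Spred1 (0.99). Without the 3 libraries of low trend none of the 3 kept the call either (0.282 for Egf, with a slope of 0.24, 0.422 for Cbl and 0.499 for Spred1).

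Over all genes the 4 receptors differed in what moved with them. With Erbb3, 1530 genes rose and 486 fell, which is 14.8% of those tested. The genes that rose had a median transcript length of 4898.5 bases and those that fell 1280.5 bases, against 2720 bases for all. With the length trend as a covariate 484 genes were called, and 3 without the 3 libraries of low trend, while leaving out animal 4150 or 4042 alone left 1246 and 1277. Within deep libraries 222 genes were called and within shallow ones 1259. With Erbb4, 806 genes rose and 634 fell (10.6%), with median lengths of 5373.5 and 1347.0 bases, and 0 were called with the covariate or without the 3 libraries. Leaving out animal 4030 alone left 469 genes, animal 4150 479 and animal 4020 956, and 1167 were called within deep and 2 within shallow libraries.

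With Egfr, 851 genes rose and 831 fell (12.4%, median lengths 4554.0 and 1686.0 bases), and 1345 were called with the covariate, 1221 without the 3 libraries, 956 without animal 4020 and 893 without animals 4020 and 4038 together. With Erbb2, 573 rose and 125 fell (5.13%), and the median lengths of 2863 and 2914.5 bases were close to that of all genes. The covariate gave 1046 calls and the omission of the 3 libraries 958, while the depth class as a covariate gave 447 and insert size 434. Omitting animal 4378 left 381 genes, animal 4038 413, and animals 4038 and 4461 together 363. Within deep and shallow libraries alone the counts were 152 and 114 for Egfr and 9 and 29 for Erbb2.

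The genes most alike to Erbb2 lay on its own chromosome. The 5 with the highest r were Pgap3, its direct neighbour, which remodels lipid anchors of surface proteins (r = 0.90, limma's adjusted p = 2.62e-07), Exoc7, an exocyst subunit (0.88, 7.35e-06), Rsad1 (0.86, 1.03e-05), Xylt2, a xylosyltransferase (0.85, 5.15e-05), and Ctc1, a telomere protein (0.85, 1.56e-05), each with a permutation p of 1e-05, the smallest possible, for r and rho. All 5 are on chromosome 11 and r stayed at 0.80 or more when animals 4038 and 4461, farthest from the median Erbb2 level, were left out. The 3 most opposite genes were Pcgf5 (r = -0.80), Rfk (-0.73) and Atp2c2, a calcium pump of secretory cells (-0.72), and all 3 fell with Erbb2 (adjusted p of at most 0.0017).

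Of the tested genes on chromosome 11, 243 of 1197 (20.3%) rose with Erbb2, against 330 of 12411 (2.66%) on the other chromosomes, where the highest share was 5.37%, on chromosome 18. Thus 42.4% of the genes that rose with Erbb2 shared its chromosome. The median r with Erbb2 was 0.268 on chromosome 11 and 0.031 elsewhere, a description across genes, which are not independent. The tested genes of chromosome 11 in order, cut into 5 stretches, had median r of 0.28, 0.30, 0.24, 0.21 and 0.29, and Erbb2 is in the fourth, so the pattern ran along the whole chromosome. The count on chromosome 11 was 320 with the length trend as a covariate (512 elsewhere) and 169 with the depth class as a covariate (212 elsewhere). It was 139 without animal 4038, 156 without animal 4378 and 100 (208 elsewhere) without animals 4038 and 4461 together. Within deep libraries 5 of the 7 genes that rose were on chromosome 11, and within shallow libraries 9 of 25. Copy number and genotype were not analysed here, and their part in this was not tested.

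Of the 4 nearest tested genes, Pgap3, Grb7 (r = 0.83) and Mien1 (r = 0.55, limma's adjusted p = 0.0326) rose with Erbb2, and Pnmt, the gene beyond Pgap3, had r = 0.20 (adjusted p = 0.602). None of the 4 nearest tested genes of any of the other 8 members passed, and Areg and Btc, which lie beside Ereg, had r = 0.32 and -0.09 with it. Egfr, on the same chromosome as Erbb2, set chromosome 11 less apart: 141 of 1197 genes on it (11.8%) rose with Egfr, against 5.72% elsewhere. Single other chromosomes came near that share, with 9.85% on chromosome 18 and 9.82% on chromosome 3. The median r with Egfr was 0.171 on chromosome 11 and 0.182 on chromosome 18. The count on chromosome 11 was 86 without animal 4020 and 92 without animal 4038, the 2 tumours high in both receptors. Without both it was 44 (3.68%, against 2.79% elsewhere), within deep libraries 22 (1.84%, against 0.338%) and within shallow libraries 6 (0.501%, against 0.564%). Other settings kept or raised the Egfr count, with 182 genes (15.2%, against 3.87% elsewhere) with the length trend as a covariate. For Erbb2 the shares in that setting were 26.7% and 4.12%. Without the 3 libraries of low length trend the Egfr count was 141 (11.8%, against 3.76%). It was 191 with the stroma score as a covariate, but 115 (9.61%, against 6.06%) with the depth class. For Erbb3 the share was 13.9% on its own chromosome 10 against 11.1% elsewhere.

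**Figure D5:**
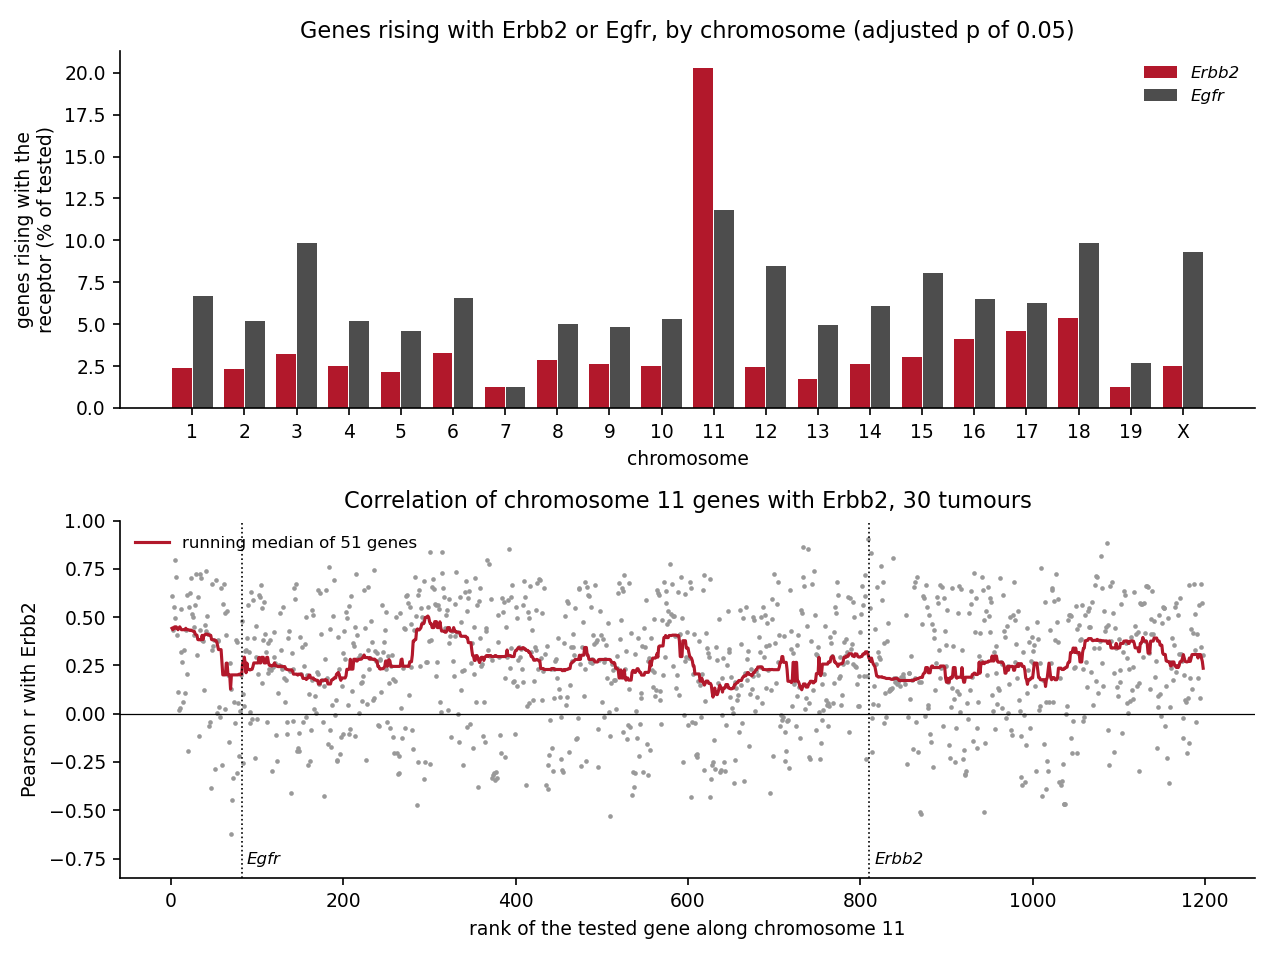
Upper panel, percentage of the tested genes on each chromosome that rose with Erbb2 (red) or Egfr (dark grey) at an adjusted p of 0.05; lower panel, Pearson r over 30 tumours of each chromosome 11 gene with Erbb2 against its rank along the chromosome, with a running median (red) and dotted lines at Egfr and Erbb2. Chromosome 11 stands at 20.3% for Erbb2, and the running median of r is above 0 along its whole length.

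The genes most alike to Egfr were Prkca, protein kinase C alpha (r = 0.84, limma's adjusted p = 2.9e-05), Zbtb4, a zinc finger repressor (0.82), Cadps2, a vesicle priming factor (0.82), Tiam2, a Rac exchange factor (0.80), and Map2, a microtubule protein (0.79), of which Prkca and Zbtb4 are on chromosome 11. Most opposite were the RNA helicase Ddx39a (r = -0.82) and the mitochondrial membrane proteins Vdac2 and Timm23 (-0.80 each). All 8 passed with adjusted p-values of at most 0.000471. For Erbb3 they were Foxn3, Ddi2 and Map3k9 (r = 0.85 each), Sprtn (0.84) and Rab11fip4 (0.83), and opposite to it Emc6 (-0.83), Iah1 (-0.77) and Slc50a1 (-0.74). Their rho was lower in every case, from 0.61 for Foxn3 to 0.79 for Map3k9 among the first 5, and without animals 4042 and 4150 their r was 0.67 to 0.76. Without the 3 libraries of low length trend r was 0.60 to 0.76 for the first 5 and -0.52 to -0.62 for the opposite 3. Only 3 genes in all were called on Erbb3 there, so most of these 8 lost the call. For Erbb4 they were Aagab (0.78), Prickle2, Dstyk, Fbh1 and Vps39 (0.76 each), and opposite Commd7 (-0.81), the mitochondrial ribosomal protein gene Mrpl34 (-0.76) and Bola3 (-0.76). All of these lost the call with the length trend as a covariate and without the 3 libraries of low trend, where 0 genes were called on Erbb4.

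The ligands had few genes that moved with them. With Hbegf, 28 genes rose and 9 fell, 0.272% of those tested. The 5 most alike were Smox, which oxidises spermine (r = 0.78, limma's adjusted p = 0.000875), Igfbp3, which binds insulin-like growth factors (0.77, 0.000875), Rnf217 (0.77), Lipt2 (0.76) and Adm, adrenomedullin and a member of the hypoxia list (0.73, 0.00473). Opposite were Entpd5 and Osbpl1a (-0.71 each) and Lifr, a cytokine receptor (-0.67, 0.0268). Without animals 4030 and 4042 the r of the first 5 was 0.57 to 0.66, and the number of genes called was 4 without animal 4042, 6 without animal 4030 and 188 without animal 4438. With Btc, 51 rose and 9 fell (0.441%), led by Ppt1, a lysosomal thioesterase, and Pof1b (0.78 each), then Mpped2, Sh2d4a and Sft2d2 (0.75 each), and opposite to it Polr2l, Isyna1 and Fah (-0.66 each). The number called with Btc ran from 0 without animal 4030 to 283 without animal 4042, and leaving out 1 tumour moved it by more than 1.5 times for 19 of the 30. With the length trend as a covariate 6 genes were called on Hbegf and 17 on Btc, and 0 and 20 without the 3 libraries of low trend.

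With Tgfa 1 gene rose (0.00735%), the transcription factor gene Tox2 (r = 0.74, limma's adjusted p = 0.0149), and the count was 0 without animal 3654 or 4461, 2 without animal 4030 or 4357 and 5 without animal 3427. With Nrg1 and Ereg limma called 0 of 13615 genes, with 1829 and 411 at an unadjusted p under 0.05, and leaving out 1 tumour gave up to 7 and 30 calls. The gene most alike to Nrg1 was Col11a1, a fibrillar collagen (r = 0.70, rho = 0.69, limma's adjusted p = 0.0658), and r was 0.68 without the 2 tumours of highest Nrg1. The 5 most alike to Ereg were hair keratin and keratin-associated genes, Krt35 (r = 0.68), Krtap11-1, Krtap7-1, Krtap8-1 and Krtap3-1 (limma's adjusted p = 0.0759 each). Without animals 3427 and 4488, the tumours of highest Ereg, these r lay between 0.17 and 0.31, so the likeness rests on those 2 tumours.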

How the data were processed

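RPKM values for 27902 RefSeq transcripts in 30 tumours were deposited by the authors. No source used here names the unit, which was read from the values. Per the submitters' processing notes CASAVA 1.7.0 was used; its settings, the build and the annotation were not given in the sources used here. Rows were named by accession with a RefSeq table of GRCm38.p6 (26490) or GENCODE vM21 (154); 1258 rows (1.94% of summed RPKM) stayed unnamed and 686 small RNA rows were left out. Where a gene had several rows (3303 genes), the row with the highest mean was used. Transcript lengths are from GENCODE.

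Depth came from the steps between low values of transcripts of 150 to 2500 bases, of which 69.0% to 80.9% came within 0.12 of whole reads (24% by chance), too few to rebuild counts. The 2 depth classes, split at the largest gap, are not in the labels. Over the 13615 genes whose mean reached 1 RPKM, r between tumours ran from 0.866 to 0.981, and no columns were identical.

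Values were tested as log2(RPKM + 1), on which low genes change less than on the linear scale. The 13615 genes whose mean reached 1 RPKM were fitted in limma 3.58.1 under R 4.3.3 (two-sided, empirical Bayes with a mean trend); p-values were adjusted by Benjamini-Hochberg over all of them, and 0.05 was the threshold. Correlations used 100000 permutations, two-sided (Python 3.11.15, numpy 2.4.6, scipy 1.17.1, pandas 2.3.3; plots, matplotlib 3.10.9). The fits were tested on simulated data. The members, lists and tests were chosen with earlier results of these data known. Genes named are the members, for each the 5 most alike, the 3 most opposite and the 4 nearest tested genes, and the pathway genes called, with the most abundant of some pathway lists. Some items are not reported here. The length trend and the alternatives that use it were chosen after seeing the data. Alternatives were pseudocounts, filters, normalization, depth class, insert size, stroma score, ranks, rows, and omission of tumours.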

Additional observations from a re-analysis of the deposited data

How the results depend on the processing

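No paired analysis was possible because the labels give 1 group of tumours, with no numbers shared between groups. The 2 pairs of members called became 1 with a pseudocount of 0.1, quantile normalization, the depth class, insert size, stroma score or length trend as a covariate, ranks of the predictor, the mean of all rows of a gene, or without the 3 libraries of lowest length trend. They became 0 without a filter, in deep libraries, in shallow libraries and without the 2 farthest tumours, and ran from 0 to 2 without 1 tumour. The 5 calls on list scores became 3 at a mean of at least 5 RPKM, a filter that left Hbegf (mean 2.57 RPKM) and its 2 calls untested. They became 0 in deep and 1 in shallow libraries, 2 without the 2 farthest tumours and 3 with the length trend as a covariate. Without the 3 libraries they became 2, and without 1 tumour they ran from 4 to 6. The number of pathway calls, 26, was 6 in deep and 12 in shallow libraries (1 and 10 of them among the 26), 9 without the 2 farthest tumours (6 among the 26), 13 with ranks (9), 16 with the length trend as a covariate (7) and 7 without the 3 libraries (5), and ran from 18 to 31 without 1 tumour. Insert size and depth class gave 0 calls throughout, and all 8 steps of the order of levels passed without any 1 tumour. Of 453 values of the 33 single relations under alternatives, 277 kept direction and call, 174 lost the call and 2 changed sign: Erbb2 on Egfr in shallow libraries (-0.003) and Cbl on Erbb4 with the length trend as a covariate (-0.001). Deep or shallow libraries alone are 14 and 16 tumours, so fewer samples enter those fits. Apart from these and the filter of 5 RPKM, the cause of a changed count was not tested.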
